A study of Arabidopsis thaliana with 18 samples.

Results

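CML38 (AT1G76650), AT3G01830 and AT2G41090 are 3 Arabidopsis genes of calmodulin-like proteins. They were taken by name, as the probe sets annotated to each of these genes alone (259879_at, 258947_at and 267076_at), and make up 3 of the 22746 probe sets tested. Levels are the deposited GCRMA values on the log2 scale, 1 per probe set and array, so a difference of 1 means double the signal. Levels of different probe sets are not set against each other.

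The arrays carried total RNA of whole rosettes of 5-week-old Columbia 0 plants, grown in short days of 8 h light and 16 h dark. The 6 groups of 3 arrays were 35S::HA::RAP2.12 plants (HA-RAP2.12) under hypoxia and in air, 35S::amiRAP2.2-12 plants (amiRAP2.2-12) under hypoxia and in air, and wild type plants under hypoxia and in air. Hypoxia was 1% oxygen and air was 21% oxygen, each for 1.5 h in the dark, so darkness during the day was common to all groups. The 35S promoter drives both transgenes in most tissues of the plant, and the labels do not say how many independent lines stand behind each genotype or whether plants were pooled. The series asks how changed RAP2.12 activity alters expression in either oxygen level. RAP2.12 belongs to the group VII ethylene response factors, transcription factors that switch on genes of the low-oxygen response and are broken down when oxygen is present. How far either construct changed its target transcripts was not analysed here.

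Calmodulin-like proteins are plant relatives of calmodulin. They bind calcium through EF-hand motifs and change shape, which lets them bind and regulate other proteins. Cytosolic calcium is known to rise in plant cells within minutes of oxygen loss, and calcium sensors are among the proteins that pass such a signal on. CML38 is known as a gene induced by low oxygen, whose protein is found in cytosolic RNA granules of oxygen-starved Arabidopsis cells. In the RefSeq gene order, CML38 lies next to another calmodulin-like gene, AT1G76640, and AT2G41090 lies next to TCH3, a touch-induced gene of the same family. AT3G01830 lies between AT3G01820 and LYK2.

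The number of arrays limits the precision of every value. Replicate 2 of amiRAP2.2-12 hypoxia lay at 47.4 on principal component 2, against -19.8 to 13.9 for the other 17 arrays, and results of the 3 genes that use it are also given without it. The lowest correlation between replicates was 0.935 in amiRAP2.2-12 hypoxia and at least 0.969 in the other groups. Of 8 green leaf markers, 5 were measured, and their summed signal was 76429 to 77533 in HA-RAP2.12 hypoxia, 80376 to 83145 in HA-RAP2.12 air, 77447 to 85534 in amiRAP2.2-12 hypoxia, 78307 to 85568 in amiRAP2.2-12 air, 70379 to 73736 in wild type hypoxia and 82112 to 86834 in wild type air. In whole rosettes, fewer cells of a type and less RNA per cell cannot be told apart.

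**Figure D1:**
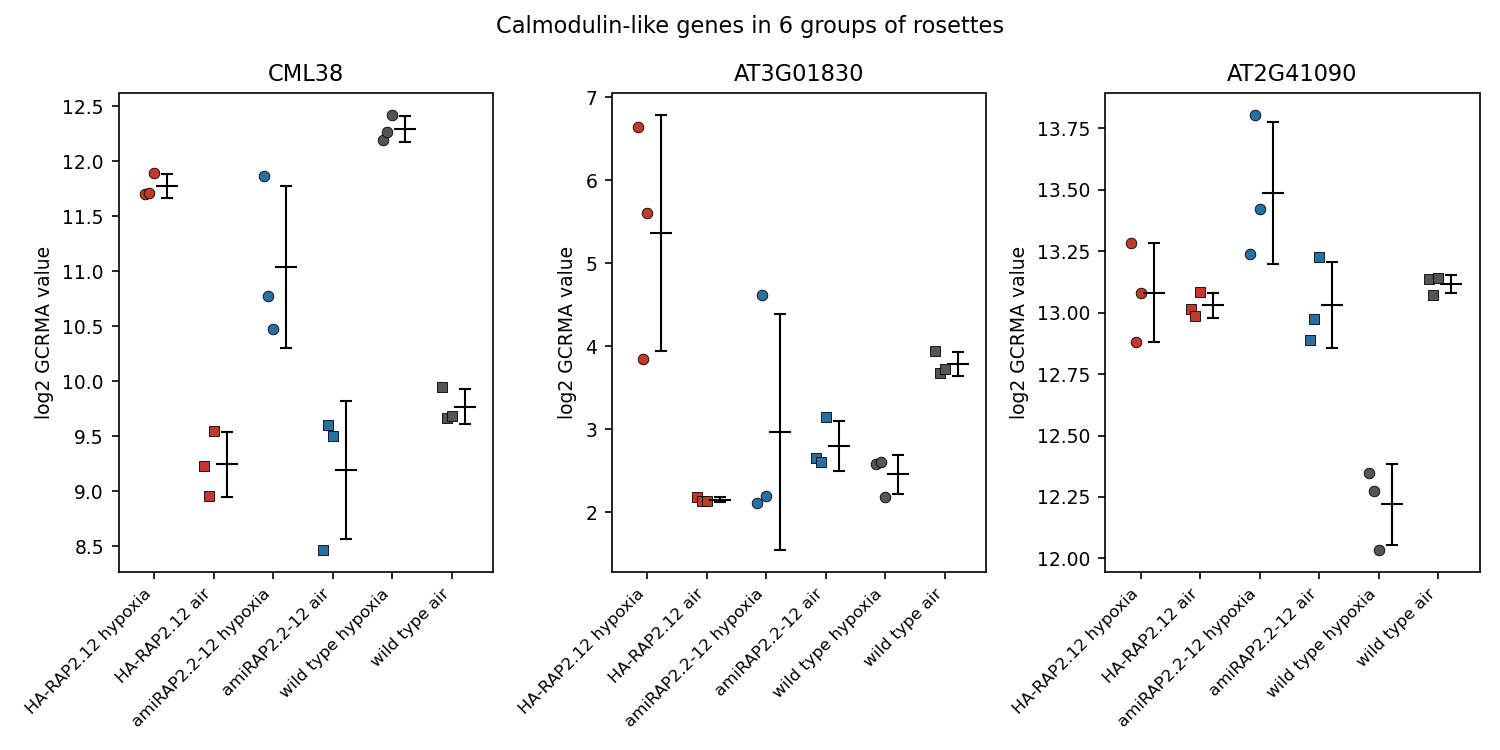
Log2 GCRMA values of CML38, AT3G01830 and AT2G41090 (1 panel each, vertical axes differ) in the 6 groups, with 1 point per array, circles for hypoxia and squares for air. Black bars are the mean and SD of 3 arrays. CML38 is high in all hypoxia groups, AT3G01830 is highest in HA-RAP2.12 hypoxia, and AT2G41090 is lowest in wild type hypoxia.

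CML38 rose under hypoxia in all 3 genotypes, by 5.77-fold in HA-RAP2.12, 3.61-fold in amiRAP2.2-12 and 5.77-fold in wild type. In HA-RAP2.12 the 3 arrays read 11.71, 11.71 and 11.90 under hypoxia, against 9.23, 8.96 and 9.55 in air. In amiRAP2.2-12 they read 11.87, 10.78 and 10.47 under hypoxia, against 8.47, 9.60 and 9.50 in air. In wild type they read 12.19, 12.27 and 12.42 under hypoxia, against 9.95, 9.67 and 9.68 in air. Every hypoxia array stood above every air array of its genotype, and the spread was widest in amiRAP2.2-12. Of all probe sets, 32.1%, 23.2% and 38.0% had no overlap between hypoxia and air in HA-RAP2.12, amiRAP2.2-12 and wild type, in either direction.

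The order of the group means of CML38 was wild type hypoxia (12.30 ± 0.11, SD, n = 3), HA-RAP2.12 hypoxia (11.77 ± 0.11), amiRAP2.2-12 hypoxia (11.04 ± 0.73), wild type air (9.77 ± 0.16), HA-RAP2.12 air (9.24 ± 0.30) and amiRAP2.2-12 air (9.19 ± 0.63). Among neighbours in this order, HA-RAP2.12 hypoxia and amiRAP2.2-12 hypoxia overlapped, as did HA-RAP2.12 air and amiRAP2.2-12 air. The other neighbours did not overlap.

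The hypoxia response of CML38 was 2.53 on the log2 scale in HA-RAP2.12 (SE 0.34, limma adjusted p = 0.000153), 1.85 in amiRAP2.2-12 (SE 0.34, 0.00229) and 2.53 in wild type (SE 0.34, 0.000144). All adjusted p-values are Benjamini-Hochberg values over the 22746 probe sets from 1 limma fit, with a threshold of 0.05. The call in amiRAP2.2-12 was lost in a fit of its own 6 arrays alone (adjusted p = 0.192), which called 642 probe sets, against 3711 in the main fit. Without replicate 2 of amiRAP2.2-12 hypoxia this response was 1.98 (0.00443). The responses of the 3 genes are set against the background of 19.4% of all probe sets past the threshold in HA-RAP2.12, 16.3% in amiRAP2.2-12 and 21.8% in wild type. In each genotype 2 of the 3 genes passed.

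No difference between the genotypes passed the test for CML38. In air the log2 difference from wild type was -0.52 in HA-RAP2.12 (95% interval -1.26 to 0.21, limma adjusted p = 0.725) and -0.58 in amiRAP2.2-12 (-1.31 to 0.16, 0.746). Without replicate 1 of amiRAP2.2-12 air, which read 8.47, the second was -0.22. Under hypoxia the difference was -0.52 in HA-RAP2.12 (-1.26 to 0.21, 0.514) and -1.26 in amiRAP2.2-12 (-1.99 to -0.52, 0.0996). In these 4 comparisons the 3 arrays of the transgenic line all lay below the 3 of wild type, which 16.2%, 12.1%, 23.4% and 11.7% of all probe sets also showed without overlap in either direction, in HA-RAP2.12 air, amiRAP2.2-12 air, HA-RAP2.12 hypoxia and amiRAP2.2-12 hypoxia.

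The difference of -1.26 in amiRAP2.2-12 under hypoxia depended on the setting. Its adjusted p was 0.0407 with dim probe sets filtered out and 0.00364 with array weights, where the value was -1.57. These settings called 516 of 13697 and 2400 of 22746 probe sets in this comparison, against 323 in the main fit. Without replicate 1 of amiRAP2.2-12 hypoxia, the highest array of that group at 11.87, the difference was -1.67 (adjusted p = 0.00682). Without replicate 2 it was -1.12 (0.198).

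The hypoxia response of CML38 in HA-RAP2.12 differed from that in wild type by -0.00 (SE 0.48, 95% interval -1.04 to 1.04, adjusted p = 1), and that in amiRAP2.2-12 by -0.68 (-1.72 to 0.36, adjusted p = 0.781). Without replicate 1 of amiRAP2.2-12 hypoxia the second was -1.09, without replicate 2 -0.55 and without replicate 3 -0.39, none of them called. Between the transgenic lines, HA-RAP2.12 was 0.06 from amiRAP2.2-12 in air (-0.68 to 0.79, 1) and 0.73 under hypoxia (-0.00 to 1.47, 0.471). The difference under hypoxia was 1.15 without replicate 1 of amiRAP2.2-12 hypoxia, 0.60 without replicate 2 and 0.45 without replicate 3, none of them called.

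**Figure D2:**
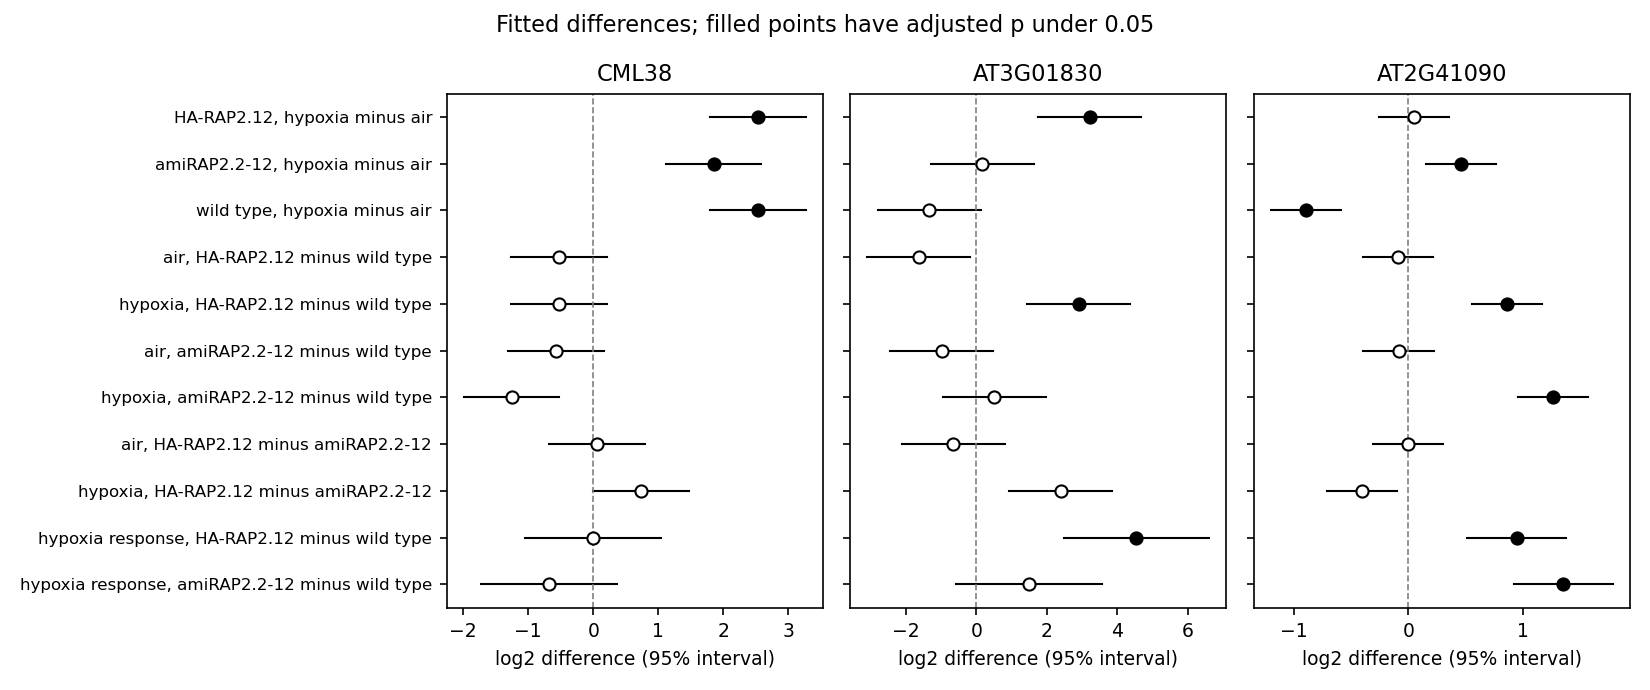
Fitted log2 differences (points) with 95% intervals (lines) for the 3 genes in 11 comparisons (horizontal axes differ), with the first-named group minus the second, and filled points where adjusted p is under 0.05. CML38 is filled only in the 3 comparisons of hypoxia with air, and the intervals of AT3G01830 are the widest.

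A list of low-oxygen induced genes gave a comparison for CML38. Of its 30 genes 16 were measured, and 14 rose in HA-RAP2.12, 15 in amiRAP2.2-12 and 16 in wild type, with median log2 responses of 2.97, 3.50 and 5.07. Of all probe sets, 10.4% were called higher in HA-RAP2.12, 8.04% in amiRAP2.2-12 and 11.5% in wild type. The count of 15 in amiRAP2.2-12 was 6 in a fit of the 6 arrays of this genotype alone. That fit called 642 of 22746 probe sets in either direction, against 3711 in the main fit. The response of CML38 lay below that of 9 of the 16 genes in HA-RAP2.12, 12 in amiRAP2.2-12 and 12 in wild type. AT1G33055 and AT3G27220, of this list, rose by 7.12 and 6.84 in wild type. CML38 therefore had a smaller measured rise than most of the list in wild type and in amiRAP2.2-12, which was not tested. AT5G66985 and AT2G17850, of this list, were at the floor in wild type air. The sizes of their rises in wild type therefore depend on how the background was removed.

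In air, 7 of the 16 genes were higher in HA-RAP2.12 than in wild type, against 0.171% of all probe sets called higher, and the median difference of the list was 1.55. They were AT4G10270 (4.85), AT5G66985 (4.43), AT2G17850 (4.40), AT1G33055 (3.27), AT4G39675 (2.87), AT3G03270, a universal stress protein gene (2.71), and AT3G10040 (1.74). AT5G66985 and AT2G17850 were at the floor in wild type air, so the sizes of their differences depend on how the background was removed. The count was 4 to 9 over the alternatives. It was 4 with the replicate block, where 75 of all probe sets were called in either direction. It was 9 with array weights, where 700 were, against 122 in the main fit. AT4G10270, AT5G66985, AT1G33055 and AT3G03270 kept their call in all 25. With the replicate block, or with any single wild type array, any single HA-RAP2.12 array or replicate 2 of amiRAP2.2-12 air left out, AT2G17850, AT4G39675 and AT3G10040 lost theirs. CML38 had a difference of -0.52 in the same comparison. Only PDC2, a pyruvate decarboxylase gene, with -0.75, lay below it, and 15 genes lay above. The difference between these values and that of CML38 was not tested.

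**Figure D3:**
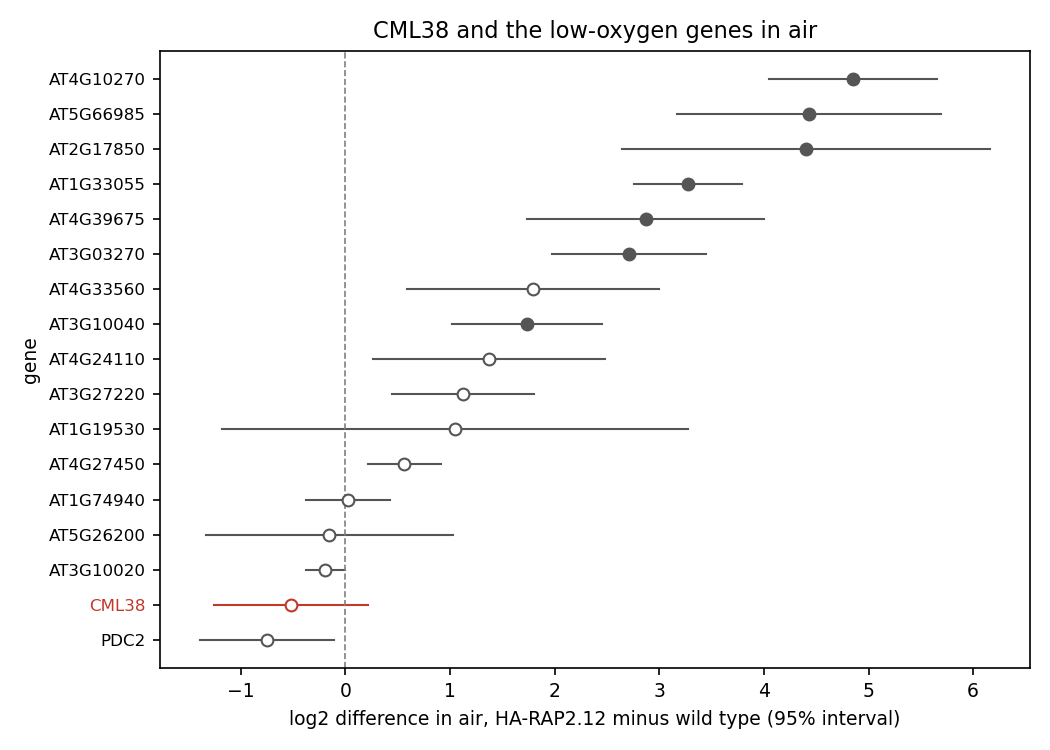
Log2 differences in air between HA-RAP2.12 and wild type, with 95% intervals, for CML38 (red) and the 16 measured low-oxygen genes (grey), ordered by value and filled where adjusted p is under 0.05. CML38 lies second from the bottom at -0.52, while 7 genes have filled points from 1.74 to 4.85.

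The list mean per array, over the 16 genes, was 11.44, 9.46 and 9.77 on replicates 1, 2 and 3 of amiRAP2.2-12 hypoxia, where CML38 read 11.87, 10.78 and 10.47. Replicate 1 was the highest in both, and replicates 2 and 3 stood in opposite order. Under hypoxia the list had 3 genes lower in HA-RAP2.12 than in wild type (PDC2 by -1.28, AT1G74940 by -0.93 and AT3G10020 by -0.36) and 3 lower in amiRAP2.2-12 (AT5G26200 by -2.61, PDC2 by -1.49 and AT1G74940 by -1.01), against 2.58% and 0.813% of all probe sets called lower in HA-RAP2.12 and in amiRAP2.2-12. These counts of 3 ran from 0 to 8 in HA-RAP2.12 and from 0 to 13 in amiRAP2.2-12 over the alternatives, with 0 without replicate 3 of wild type hypoxia in HA-RAP2.12, and 0 in a fit of the 6 arrays compared and 13 with array weights in amiRAP2.2-12. In that amiRAP2.2-12 comparison the fit of the 6 arrays called 10 of 22746 probe sets in either direction. Array weights called 2400, against 323 in the main fit. At an unadjusted p under 0.05, 6 of the 16 genes differed in HA-RAP2.12 and 14 in amiRAP2.2-12, against 16.2% and 12.1% of all probe sets, and the median differences of the list were -0.55 and -1.43. The response difference of HA-RAP2.12 against wild type was below the -0.00 of CML38 in all 16 genes, with a median of -2.10. CML38 itself ranked 9935th from the lowest of all 22746 probe sets. Of the 16 genes 5 passed as lower and 11 did not pass, against 1.62% of all probe sets past the threshold in either direction. That count ran from 4 to 12 over the alternatives. It was 12 with only the arrays compared, where 997 probe sets were called, against 369 in the main fit. Differences between these genes and CML38 were not tested.

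AT3G01830 was detected weakly, and rose under hypoxia in HA-RAP2.12 alone among the 3 tests within a genotype. Only 3 of 18 arrays read above log2 4, and 6 read under 2.5, which is close to the lowest value of 2.11 on every array. A group with a mean under 2.5, a limit chosen after the data were seen, is called at the floor.

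In HA-RAP2.12, AT3G01830 read 6.64, 3.84 and 5.61 under hypoxia, against 2.19, 2.14 and 2.14 in air. In amiRAP2.2-12 it read 2.11, 4.61 and 2.19 under hypoxia, against 2.65, 2.60 and 3.14 in air. In wild type it read 2.59, 2.60 and 2.19 under hypoxia, against 3.95, 3.67 and 3.73 in air. HA-RAP2.12 hypoxia and air did not overlap, and wild type hypoxia lay below all 3 air arrays. In amiRAP2.2-12 hypoxia only replicate 2, the array that stood apart, read above 4. The summed signal of the 2 measured root markers was 38.9, 279.9 and 172.0 on replicates 1, 2 and 3 of HA-RAP2.12 hypoxia and 301.6, 18.9 and 114.6 on those of amiRAP2.2-12 hypoxia. In both groups the array with the highest AT3G01830 value had the lowest sum. AT4G11290, 1 of the 2 markers, was at the floor in every group, so the sums came mainly from the other, PYK10. The sums were 215.7 to 239.7 in HA-RAP2.12 air, 221.4 to 438.1 in amiRAP2.2-12 air, 380.3 to 432.4 in wild type hypoxia and 233.0 to 248.4 in wild type air, and their part in the result was not tested.

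Of the group means, HA-RAP2.12 hypoxia was the highest (5.36 ± 1.42, SD, n = 3), followed by wild type air (3.78 ± 0.14), amiRAP2.2-12 hypoxia (2.97 ± 1.42), amiRAP2.2-12 air (2.80 ± 0.30), wild type hypoxia (2.46 ± 0.23, at the floor) and HA-RAP2.12 air (2.15 ± 0.03, at the floor). Every pair of neighbours in this order overlapped.

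The hypoxia response of AT3G01830 was 3.21 in HA-RAP2.12 (SE 0.67, limma adjusted p = 0.00398), measured against a group at the floor. It was 0.17 in amiRAP2.2-12 (95% interval -1.29 to 1.63, adjusted p = 1) and -1.32 in wild type (-2.78 to 0.13, 0.218). The call in HA-RAP2.12 was lost in a fit of its own 6 arrays alone (0.0690). In wild type the same fit gave adjusted p = 0.00628 and array weights gave 0.0307. Without replicate 2 of amiRAP2.2-12 hypoxia the response there was -0.65 (0.599). It ranked 85th from the highest of 22746 differences in HA-RAP2.12.

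Under hypoxia AT3G01830 was 2.90 higher in HA-RAP2.12 than in wild type (SE 0.67, 95% interval 1.45 to 4.36, limma adjusted p = 0.0286). It was the 12th highest of 22746 differences. The wild type group was at the floor, and the difference depends on how the background was removed. The call was lost without any 1 of the 3 wild type hypoxia arrays, without replicate 1 or without replicate 3 of HA-RAP2.12 hypoxia, with adjusted p from 0.0704 to 0.108 and differences from 2.27 to 2.98. It was also lost in a fit of the 6 arrays of these groups alone (0.153). AT3G01830 and AT2G41090 passed in this comparison, against a background of 4.67% of probe sets.

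In air AT3G01830 was lower in HA-RAP2.12 than in wild type by a difference of -1.63 that did not pass (95% interval -3.09 to -0.17, adjusted p = 0.459; 0.0175 in a fit of these 6 arrays alone). For amiRAP2.2-12 against wild type the differences were -0.98 in air (-2.44 to 0.47, 0.827) and 0.51 under hypoxia (-0.94 to 1.97, 0.971). The difference under hypoxia was -0.31 without replicate 2 of amiRAP2.2-12 hypoxia. HA-RAP2.12 minus amiRAP2.2-12 was -0.65 in air (adjusted p = 1) and 2.39 under hypoxia (0.94 to 3.85, 0.146). Without replicate 2 of amiRAP2.2-12 hypoxia the second was 3.21 (0.0124), and without replicate 2 of HA-RAP2.12 hypoxia 3.16 (0.0383). In air, 0 of the 3 genes passed in any comparison between genotypes by limma. At an unadjusted p under 0.05 they were 1 for HA-RAP2.12 against wild type, 0 for amiRAP2.2-12 against wild type and 0 for HA-RAP2.12 against amiRAP2.2-12, against 9.01%, 7.77% and 7.60% of all probe sets. Past the adjusted threshold were 0.536%, 0.0132% and 0.185% of all probe sets. Under hypoxia, 0 of 3 passed for HA-RAP2.12 against amiRAP2.2-12, against 1.01% of all probe sets. At an unadjusted p under 0.05 they were 2 of 3, against 10.7% of all probe sets.

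The hypoxia response of AT3G01830 differed between HA-RAP2.12 and wild type by 4.53 (SE 0.95, 95% interval 2.48 to 6.59, limma adjusted p = 0.0332), the 10th highest of 22746. The response was 3.21 in HA-RAP2.12 and -1.32 in wild type. HA-RAP2.12 air and wild type hypoxia were both at the floor, so the size and the rank depend on how the background was removed. The call was lost when any of 12 arrays was left out, namely any of the 6 wild type arrays, any of the 3 HA-RAP2.12 air arrays, replicate 1 or 3 of HA-RAP2.12 hypoxia, or replicate 2 of amiRAP2.2-12 air, with adjusted p from 0.0503 to 0.0877. For amiRAP2.2-12 the same difference was 1.49 (-0.56 to 3.55, 0.722), and 0.67 without replicate 2 of amiRAP2.2-12 hypoxia (0.875). In the comparison of HA-RAP2.12 with wild type 2 of the 3 genes passed, against 1.62% of all probe sets.

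AT2G41090 was strongly detected and fell under hypoxia in wild type, while it rose 1.37-fold in amiRAP2.2-12 and did not pass the test in HA-RAP2.12. In HA-RAP2.12 the arrays read 13.28, 12.88 and 13.08 under hypoxia, against 13.02, 12.99 and 13.09 in air. In amiRAP2.2-12 they read 13.24, 13.80 and 13.42 under hypoxia, against 12.89, 12.97 and 13.23 in air. In wild type they read 12.35, 12.28 and 12.03 under hypoxia, against 13.14, 13.07 and 13.14 in air. The 3 wild type hypoxia arrays were the lowest of all 18, and none of the other 15 read under 12.88.

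The group means of AT2G41090, in order, were 13.49 ± 0.29 in amiRAP2.2-12 hypoxia (SD, n = 3), 13.12 ± 0.04 in wild type air, 13.08 ± 0.20 in HA-RAP2.12 hypoxia, 13.03 ± 0.18 in amiRAP2.2-12 air, 13.03 ± 0.05 in HA-RAP2.12 air and 12.22 ± 0.16 in wild type hypoxia. The first and the last differed from their neighbour without overlap, and the 3 neighbouring pairs between wild type air and HA-RAP2.12 air overlapped.

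The response of AT2G41090 to hypoxia was 0.05 in HA-RAP2.12 (95% interval -0.25 to 0.36, adjusted p = 1), 0.46 in amiRAP2.2-12 (SE 0.14, 0.0441) and -0.90 in wild type (SE 0.14, 0.000498). The rise in amiRAP2.2-12 was lost when any of 13 arrays was left out (adjusted p from 0.0514 to 0.153, values from 0.30 to 0.49), namely any of the 3 wild type air arrays, replicate 1 or 2 of wild type hypoxia, any of the 3 HA-RAP2.12 air arrays, replicate 3 of HA-RAP2.12 hypoxia, replicate 1 or 2 of amiRAP2.2-12 air, or replicate 2 or 3 of amiRAP2.2-12 hypoxia. Without replicate 2 of amiRAP2.2-12 hypoxia it was 0.30 (0.153). It was also lost in a fit of the 6 arrays of this genotype alone (0.333), which called 642 probe sets, against 3711 in the main fit.

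Under hypoxia AT2G41090 was higher than in wild type in both transgenic lines, by 0.86 in HA-RAP2.12 (SE 0.14, 1.82-fold, limma adjusted p = 0.00555) and 1.27 in amiRAP2.2-12 (SE 0.14, 2.41-fold, 0.00131). The calls were lost in fits of the 6 arrays of each comparison alone (0.0599 in HA-RAP2.12 and 0.225 in amiRAP2.2-12). Those fits called 902 and 10 of 22746 probe sets, against 1063 and 323 in the main fit. Without replicate 2 of amiRAP2.2-12 hypoxia the difference in amiRAP2.2-12 was 1.11 (0.00308). In amiRAP2.2-12 under hypoxia 1 of the 3 genes passed, against 1.42% of probe sets. In air the genotypes differed by -0.09 from wild type in either line (adjusted p = 1 each). HA-RAP2.12 minus amiRAP2.2-12 was -0.00 in air, a sign that turned to 0.02 or 0.03 under other scalings, and -0.41 under hypoxia (-0.71 to -0.10, 0.266). The difference under hypoxia was -0.25 without replicate 2 of amiRAP2.2-12 hypoxia (0.468).

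The hypoxia response of AT2G41090 differed from that of wild type by 0.95 in HA-RAP2.12 (SE 0.20, 95% interval 0.52 to 1.38, limma adjusted p = 0.0339) and by 1.35 in amiRAP2.2-12 (SE 0.20, 0.92 to 1.79, 0.0308). The first call was lost under median centring (0.0543) and when any of 11 arrays was left out, namely any wild type air array, replicate 2 or 3 of wild type hypoxia, any HA-RAP2.12 air array, replicate 1 or 3 of HA-RAP2.12 hypoxia, or replicate 2 of amiRAP2.2-12 air (0.0506 to 0.0877). The second was lost in a fit of the 12 arrays of both genotypes alone (0.103) and without any wild type air array, replicate 3 of wild type hypoxia, or replicate 1 or 2 of amiRAP2.2-12 air (0.0533 to 0.0855). Without replicate 2 of amiRAP2.2-12 hypoxia it was 1.196 (0.0308). In amiRAP2.2-12 1 of the 3 genes passed, against 0.176% of probe sets.

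Some green leaf markers moved in the same comparisons as AT2G41090. LHCB4.3, a protein of the light-harvesting antenna, had a hypoxia response of 0.19 in HA-RAP2.12 (adjusted p = 0.687), -0.23 in amiRAP2.2-12 (0.554) and -1.78 in wild type (3.17e-05). Under hypoxia it was 2.33 higher in HA-RAP2.12 than in wild type and 1.88 higher in amiRAP2.2-12. SBPASE, a Calvin cycle enzyme, fell by 0.34 in wild type and was 0.34 higher in HA-RAP2.12 and 0.28 higher in amiRAP2.2-12 than in wild type under hypoxia. The SBPASE call in amiRAP2.2-12 was lost in 7 of 25 alternatives, replicate 2 of amiRAP2.2-12 hypoxia or any wild type hypoxia array left out among them. PRK, another Calvin cycle enzyme, fell in HA-RAP2.12 (-0.48) and in wild type (-0.50). RCA, the Rubisco activase, and LHCB4.1, another antenna protein, passed no test. Under hypoxia RCA differed from wild type by 0.06 in HA-RAP2.12 and by 0.12 in amiRAP2.2-12. LHCB4.1 differed by 0.01 in HA-RAP2.12 hypoxia and by 0.10 in amiRAP2.2-12 hypoxia. The median difference of the 5 markers under hypoxia was 0.06 in HA-RAP2.12 and 0.12 in amiRAP2.2-12, each against wild type. The summed marker signal was lowest in wild type hypoxia, as given above, and its part in the result was not tested. Of 4 root markers 2 were measured. AT4G11290 was at the floor in every group and PYK10, a root beta-glucosidase, passed no test and ranged from 3.85 to 8.21 in amiRAP2.2-12 hypoxia. FMA, a regulator of guard cell identity, the 1 guard cell marker measured of 3, passed no test.

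Over the calmodulin-like family, 35 of 50 listed genes were measured and 12 of these were at the floor in every group. Under hypoxia 8 rose, 3 fell and 24 did not pass in HA-RAP2.12, 4 rose, 2 fell and 29 did not pass in amiRAP2.2-12, and 4 rose, 6 fell and 25 did not pass in wild type. The median log2 response was 0.02 in HA-RAP2.12 and 0.00 in amiRAP2.2-12 and in wild type, against 0.00 over all probe sets in each. Higher calls made up 10.4%, 8.04% and 11.5% of all probe sets in HA-RAP2.12, amiRAP2.2-12 and wild type, and lower calls 8.95%, 8.27% and 10.3%. Without the 3 genes described above, 6 rose and 3 fell in HA-RAP2.12, 2 rose and 2 fell in amiRAP2.2-12, and 3 rose and 5 fell in wild type, of 32. AT3G24110, which fell in HA-RAP2.12 and is in both counts, was at the floor in every group. Its HA-RAP2.12 means were 2.11 under hypoxia and 2.41 in air, so its call depends on how the background was removed.

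The largest rise in the family was in AT1G21550, by 4.50 in HA-RAP2.12, 3.71 in amiRAP2.2-12 and 3.69 in wild type (SE 0.32 each, limma adjusted p = 8.04e-07, 6.60e-06 and 3.80e-06). Its arrays read 9.67, 8.82 and 8.90 in HA-RAP2.12 hypoxia, against 5.07, 3.94 and 4.90 in HA-RAP2.12 air. In wild type they read 9.06, 8.92 and 9.01 under hypoxia, against 5.32, 5.51 and 5.08 in air. AT1G21550 thus rose in every genotype, as CML38 did.

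CML42 fell under hypoxia in wild type by 2.11 (SE 0.36, limma adjusted p = 0.000922), with responses of 0.74 in HA-RAP2.12 (0.214) and -0.51 in amiRAP2.2-12 (0.427). It read 7.69, 7.77 and 8.02 in HA-RAP2.12 hypoxia, against 7.09, 7.01 and 7.17 in HA-RAP2.12 air. It read 6.35, 7.93 and 6.52 in amiRAP2.2-12 hypoxia, against 6.73, 7.88 and 7.72 in air. In wild type it read 6.36, 6.28 and 6.02 under hypoxia, against 8.47, 8.27 and 8.26 in air. Under hypoxia CML42 was 1.61 higher in HA-RAP2.12 than in wild type (0.0250), and the response difference was 2.85 (SE 0.51, 0.0159). Without any 1 of the 6 arrays of these hypoxia groups, the call at 1.61 was lost (0.0542 to 0.103), while the response difference kept its call under all 25 alternatives. The mean of CML42 was thus lowest in wild type hypoxia, as that of AT2G41090 was.

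Under hypoxia 3 family genes were higher in HA-RAP2.12 than in wild type and none lower (AT3G01830, AT2G41090 and CML42), 1 was higher in amiRAP2.2-12 (AT2G41090), and none passed for HA-RAP2.12 against amiRAP2.2-12. Of all probe sets, 2.09% were called higher in HA-RAP2.12 and 0.607% in amiRAP2.2-12, each against wild type. Without the 3 genes described above, 1 of 32 was higher in HA-RAP2.12 and 0 in amiRAP2.2-12. At an unadjusted p under 0.05, HA-RAP2.12 against amiRAP2.2-12 had 5 of 35, against 10.7% of all probe sets. In air 0 of 35 passed by limma in each of the 3 genotype comparisons, and 8, 1 and 5 had an unadjusted p under 0.05 for HA-RAP2.12 against wild type, amiRAP2.2-12 against wild type and HA-RAP2.12 against amiRAP2.2-12, where 9.01%, 7.77% and 7.60% of all probe sets did. The response difference passed, as higher, for 4 genes in HA-RAP2.12 and for 1 in amiRAP2.2-12, against 1.17% and 0.0791% of all probe sets. Without the 3 genes described above, which were chosen with earlier results known, these counts were 2 and 0 of 32. The fourth gene in HA-RAP2.12, chosen after its values were seen, was AT2G41410, with responses of 1.30 in HA-RAP2.12, 1.07 in amiRAP2.2-12 and 0.28 in wild type, and a response difference of 1.02 for HA-RAP2.12 (SE 0.21, limma adjusted p = 0.0282). This call was lost under quantile normalization, with the replicate block, with any single wild type array left out, without replicate 2 of HA-RAP2.12 air, and without replicate 1 or 3 of HA-RAP2.12 hypoxia (adjusted p from 0.0528 to 0.0791).

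AT1G76640, the neighbour of CML38, read at the lowest values on all arrays but replicates 1 and 2 of amiRAP2.2-12 air, at 5.53 and 2.34, and passed no test.

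**Figure D4:**
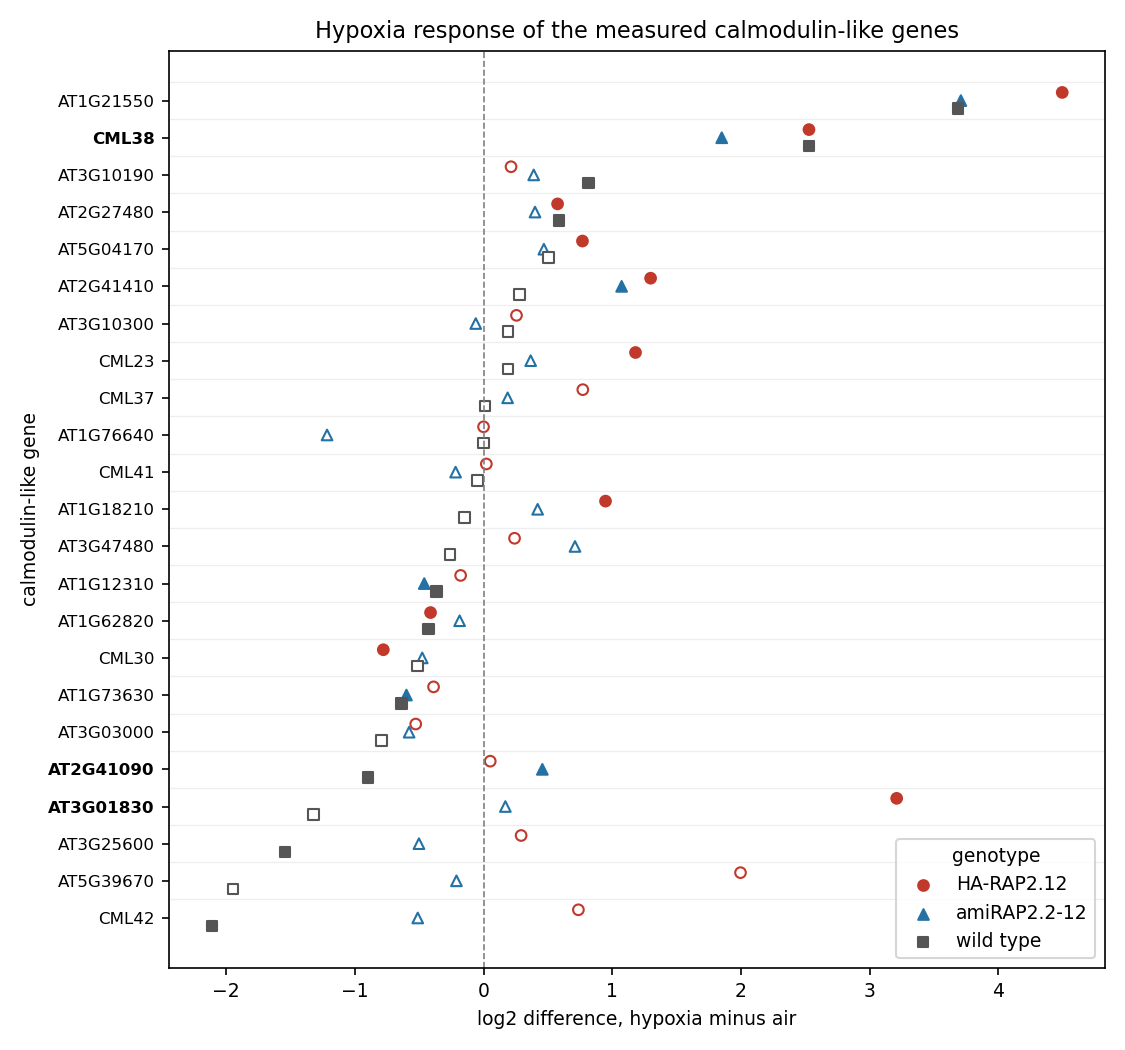
Log2 difference between hypoxia and air in each genotype for the 23 measured calmodulin-like genes that were not at the floor in every group (circles HA-RAP2.12, triangles amiRAP2.2-12, squares wild type; filled where adjusted p is under 0.05), ordered by the wild type value. AT1G21550 and CML38 lie far to the right in every genotype, and CML42 and AT2G41090 are filled on the left in wild type.

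The other calcium lists were measured thinly. None of the genes listed as calmodulins, calcineurin B-like proteins, their kinases, calcium-dependent kinases or calcium pumps had a named probe set, and they were not analysed here. Of 14 channel genes 2 were measured, the glutamate receptor-like GLR3.3 and GLR3.6. GLR3.3 fell in amiRAP2.2-12 by 0.44 (adjusted p = 0.0248; the call was lost in a fit of the 6 arrays compared and without replicate 2 of amiRAP2.2-12 air or of amiRAP2.2-12 hypoxia), with responses of -0.34 in HA-RAP2.12 (0.0694) and 0.01 in wild type. GLR3.6 had -0.42, -0.16 and -0.07 in HA-RAP2.12, amiRAP2.2-12 and wild type, with no call.

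Of 9 calmodulin-binding transcription factors 3 were measured. AT3G16940 rose in all genotypes, by 0.97 in HA-RAP2.12, 0.81 in amiRAP2.2-12 and 0.72 in wild type (limma adjusted p = 0.00221, 0.0101 and 0.0132). AT4G16150 rose by 0.49 in HA-RAP2.12 and 0.36 in wild type, and had 0.34 in amiRAP2.2-12 (0.0646). AT1G67310 rose in HA-RAP2.12 by 0.35 (0.0321), with 0.14 in amiRAP2.2-12 and 0.10 in wild type. Of these 6 calls, that of AT3G16940 in HA-RAP2.12 was kept in all 25 alternatives, and the other 5 were lost in a fit of the 6 arrays compared. Single arrays also ended 3 of them: AT3G16940 in wild type (wild type air replicate 1, wild type hypoxia replicates 1 and 2), AT4G16150 in wild type (any wild type air array, wild type hypoxia replicates 1 and 3) and AT1G67310 (HA-RAP2.12 air replicates 2 and 3, HA-RAP2.12 hypoxia replicates 1 and 2). The call of AT4G16150 in wild type was also lost under quantile normalization and with the replicate block. That of AT1G67310 was also lost under median centring and with the replicate block.

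Of 6 other EF-hand genes 1 was measured, AT2G46600. It fell in wild type by 0.70 (SE 0.20, limma adjusted p = 0.0230), with responses of 0.37 in HA-RAP2.12 (0.277) and 0.45 in amiRAP2.2-12 (0.175). Under hypoxia it read 12.86, 13.48 and 13.11 in amiRAP2.2-12, against 12.06, 12.07 and 12.17 in wild type, a difference of 1.05 (0.0256). This call was lost in 7 of 25 alternatives: the 6 arrays compared alone, the replicate block, and with any single wild type hypoxia array, or replicate 2 or 3 of amiRAP2.2-12 hypoxia, left out. The call in wild type was lost in 4, without replicate 1 or 3 of wild type air or replicate 1 or 2 of wild type hypoxia. AT2G46600 was lower in wild type hypoxia than in wild type air, where it read 12.79, 12.72 and 12.90.

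The genes most like each of the 3 over the 18 arrays were found by Pearson correlation among named single-gene probe sets with a mean above log2 4. These are descriptions over arrays that share the oxygen and genotype groups. For CML38 they were AT3G23170 (r = 0.969), AT1G28760 (0.969), AT3G28480 (0.968), AT5G60190 (0.957) and ARL (0.957), a gene that promotes organ growth, and each rose under hypoxia in all 3 genotypes, a pattern by which they were chosen. For AT3G01830 they were AT1G57630 (0.934), AT5G35735 (0.919), PUB24, a U-box ubiquitin ligase (0.911), AT2G26190 (0.901) and AT1G24140 (0.899), and all 5 rose in HA-RAP2.12. For AT2G41090 they were AT1G06690 (0.880), AT2G30270 (0.861), THIC, an enzyme of thiamine synthesis (0.860), AT3G04210 (0.835) and AT3G13070 (0.832), and all 5 fell in wild type and none passed in HA-RAP2.12 or amiRAP2.2-12. Of all probe sets, 10.4% were called higher in HA-RAP2.12 and 10.3% lower in wild type. As for CML38, the genes most like AT3G01830 and AT2G41090 were chosen by the pattern they share. Ranked over the 6 group means instead, 0, 1 and 0 of the 5 genes named for each stayed among the 5 most alike for CML38, AT3G01830 and AT2G41090.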

How the data were processed

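Total RNA from whole rosettes was hybridised to 1-colour Affymetrix arrays, 1 per sample. The authors deposited log2 values, 1 per probe set and array, made with GCRMA per the submitters' processing notes, whose version is not given in the sources used here. GCRMA removes background, equalises arrays and summarises probes, so values near the lowest have little meaning. Groups and replicate numbers came from the labels, which do not say that replicates were separate plants, so p-values measure only the spread between these samples, which may be technical. The table held 22810 probe sets. 64 controls were left out and 22746 tested, of which 13513 named 1 gene and 503 several in the platform annotation, with symbols updated through the TAIR10.1 gene table for 13436. Percent shares of called probe sets were computed here.

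Group means over all 18 arrays were fitted with limma 3.58.1 in R 4.3.3 (lmFit, eBayes), and 11 two-sided comparisons were tested, with p-values adjusted across the probe sets by Benjamini and Hochberg (threshold 0.05), without a dim filter or replicate block. The fit was tested on simulated data for wild type hypoxia against air alone, with differences added to probe sets with a mean above log2 4. That test did not cover differences near the floor, an array that stands apart or response differences. Figures used Python 3.11.15 and matplotlib 3.10.9. The genes, the lists and the tests were chosen with earlier results of these data known. The 14 lists hold 219 loci, of which 65 were measured. Named genes, unless said otherwise, are the 3 genes, up to 4 per list with the smallest adjusted p in the wild type hypoxia response, list genes that passed in a transgenic line against wild type, and the 5 most alike genes of each of the 3. Alternatives were quantile normalization, median centring, a filter on dim probe sets (13697 kept), eBayes with trend and robust options, array weights, only the arrays compared, a replicate block, leaving out each array, and likeness over group means. The same alternatives were applied to the list genes after their values were seen. Correlations of the deviations of same-numbered samples reached 0.49, and 2 of 3 pairs were over 0.1 in each comparison of hypoxia with air, but in no comparison were all 3, so the numbers were not taken to pair samples.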

Additional observations from a re-analysis of the deposited data

Results flagged for a closer look

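The hypoxia responses of 4 of 35 measured calmodulin-like genes differed from the wild type response by the test of the difference itself, in limma's fit over all arrays. All 4 passed as higher in HA-RAP2.12 and 1 in amiRAP2.2-12, against 1.17% and 0.0791% of all probe sets called higher. AT3G01830 and AT2G41090 are among the 3 genes described above, which were chosen with earlier results known. Without the 3 genes these counts were 2 and 0 of 32. AT3G01830 responded 4.53 higher in HA-RAP2.12 than in wild type (adjusted p = 0.0332), with HA-RAP2.12 air and wild type hypoxia both at the floor, so the size depends on how the background was removed. AT2G41090 responded 0.949 higher in HA-RAP2.12 (adjusted p = 0.0339) and 1.35 higher in amiRAP2.2-12 (adjusted p = 0.0308). CML42 responded 2.85 higher in HA-RAP2.12 (adjusted p = 0.0159). AT2G41410 responded 1.02 higher in HA-RAP2.12 (adjusted p = 0.0282), and was chosen after its values were seen. Only the CML42 call was kept under all 25 alternatives. Each of the other calls was lost under some of them, as given above.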

How the results depend on the processing

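Of 33 results for the 3 genes, 12 were called, and 3 of the 12 kept their call under every alternative: CML38 in wild type and in HA-RAP2.12 hypoxia against air, and AT2G41090 in wild type. With array weights, the hypoxia minus air difference of AT3G01830 was -1.25 in wild type (now called) and -0.46 in amiRAP2.2-12 (reversed). In amiRAP2.2-12 minus wild type under hypoxia CML38 was -1.57 (called) and AT3G01830 -0.26 (reversed). In HA-RAP2.12 minus amiRAP2.2-12, CML38 was -0.0308 and AT2G41090 0.0254 in air (both reversed), and CML38 1.13, AT3G01830 3.07 and AT2G41090 -0.34 under hypoxia (all called). The CML38 response difference for HA-RAP2.12 was 0.0393 (reversed). Array weights also called more of all probe sets. Under hypoxia they called 1825 in HA-RAP2.12 minus amiRAP2.2-12, against 230 in the main fit. They called 2400 in amiRAP2.2-12 minus wild type under hypoxia, against 323, and 7360 in the wild type response, against 4951. AT2G41090 for HA-RAP2.12 minus amiRAP2.2-12 in air also reversed under quantile normalization (0.0237) and median centring (0.0278), and its response difference for HA-RAP2.12 was 0.93 and lost its call under centring. Once dim probe sets were filtered out, CML38 in amiRAP2.2-12 minus wild type under hypoxia was called (-1.26).

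With only the arrays compared, calls were lost for AT3G01830 in HA-RAP2.12 hypoxia against air (3.21), CML38 (1.85) and AT2G41090 (0.46) in amiRAP2.2-12, AT3G01830 (2.90) and AT2G41090 (0.86) in HA-RAP2.12 minus wild type under hypoxia, and AT2G41090 in amiRAP2.2-12 minus wild type (1.27) and its response difference (1.35). AT3G01830 gained one in wild type (-1.32) and in HA-RAP2.12 minus wild type in air (-1.63). Calls over all probe sets fell from 3711 to 642 in amiRAP2.2-12 hypoxia against air and from 40 to 8 for its response difference. In HA-RAP2.12 hypoxia against air they fell from 4404 to 3399. In wild type hypoxia against air they rose from 4951 to 5244. With the replicate block, whose numbers mark no known pairing, the same differences lost their call for AT2G41090 in amiRAP2.2-12 (0.46, adjusted p = 0.0754), AT3G01830 in HA-RAP2.12 minus wild type under hypoxia (2.90, 0.0548), and the response differences of AT3G01830 (4.53, 0.0728) and AT2G41090 in HA-RAP2.12 (0.95, 0.0746) and of AT2G41090 in amiRAP2.2-12 (1.35, 0.0703). It changed no other call. The cause of these changes was not tested.

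Leaving out 1 array at a time gave these ranges where a call or sign changed. For hypoxia minus air they were -0.0492 to 0.15 for AT2G41090 in HA-RAP2.12, and -0.65 to 0.60 for AT3G01830 and 0.30 to 0.58 for AT2G41090 in amiRAP2.2-12. Under hypoxia they were 2.27 to 3.67 for AT3G01830 in HA-RAP2.12 minus wild type, -1.67 to -0.97 for CML38 and -0.31 to 0.94 for AT3G01830 in amiRAP2.2-12 minus wild type, and 1.75 to 3.21 for AT3G01830 in HA-RAP2.12 minus amiRAP2.2-12. In air HA-RAP2.12 minus amiRAP2.2-12 ranged from -0.31 to 0.26 for CML38 and from -0.0719 to 0.10 for AT2G41090. Response differences for HA-RAP2.12 ranged from -0.14 to 0.15 for CML38, 3.90 to 5.30 for AT3G01830 and 0.85 to 1.05 for AT2G41090, and for amiRAP2.2-12 from 1.196 to 1.48 for AT2G41090. Signal near the floor limits AT3G01830. The deposited values carry no read depth. Over all alternatives, 11 of 24 calls among the other calmodulin-like genes were kept and 0 reversed. The family count varied by over 1.5 times in several comparisons, for example 1 to 8 higher in HA-RAP2.12 than in wild type under hypoxia, and up to 6 lower in air with array weights. Array weights, which gave the 8 and the 6, called 3926 and 700 of all probe sets there, against 1063 and 122 in the main fit. Among the low-oxygen genes 44 of 69 calls were kept, and among the green leaf markers 7 of 9, with 0 reversed.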
